A study of Mus musculus with 135 samples.

Results

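The 10 genes described here are transcripts by which astrocytes are recognised in brain tissue, and transcripts that astrocytes raise when they become reactive. They were chosen by symbol, with earlier results of these data known, and each was found once among the 55416 genes listed in both count tables. Gfap, Vim, Serpina3n and Cd44 were taken as the reactivity genes, and Slc1a2, Slc1a3, Aqp4, Gja1, Aldh1l1 and S100b as the identity genes. All 10 passed the filter on low counts in all 20 comparisons.

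The libraries came from a study of adult male Townes mice, in which the mouse globin genes are replaced by human ones. SS mice carry the sickle form of human haemoglobin and develop sickle cell disease, and AA mice carry the normal human form and served as controls, so both genotypes were humanised. In repeated social defeat (RSD) an aggressor male was put into an established cage every day, and control cages had no aggressor. Minocycline, a tetracycline antibiotic that dampens microglial activation, was given in the drinking water from the day before RSD and throughout it, and the study asked whether RSD changed the transcriptome of SS mice and whether minocycline reduced that change. Bulk polyA RNA of cortex and hippocampus was sequenced with 1 library per mouse and tissue. After the exclusions given below, the cortex set held 12 AA, 8 SS, 3 AA + RSD, 6 SS + RSD, 1 AA + minocycline, 4 SS + minocycline, 18 AA + RSD + minocycline and 14 SS + RSD + minocycline libraries. The hippocampus set differed only in its 11 AA and 7 SS libraries. Values are CPM, the reads of a gene relative to all reads on genes of its library without TMM scaling, and errors of CPM are SD over libraries. TMM scaling was used in the edgeR fits only. In bulk RNA, fewer astrocytes and less RNA per astrocyte cannot be told apart.

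Astrocytes clear glutamate from synapses, buffer potassium, move water at endfeet that wrap blood vessels, and are joined into networks by gap junctions. On injury or inflammation they become reactive, a state known for thicker glial filaments, secreted protease inhibitors and altered adhesion molecules. Astrocytes also differ between brain regions, and hippocampal astrocytes are known to hold more glial fibrillary acidic protein than those of grey matter in the cortex.

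The promoters of Gfap and Serpina3n are shown because these genes differed most between the tissues, and that of Slc1a3 because it alone held a STAT-type sequence. Each is the 250 bases before the gene start, written 5′ to 3′ on the gene's strand, from RefSeq with build GRCm38.p6, and capitals mark matches to the motifs named below.
Gfap, chr11:102897201-102897450, minus strand: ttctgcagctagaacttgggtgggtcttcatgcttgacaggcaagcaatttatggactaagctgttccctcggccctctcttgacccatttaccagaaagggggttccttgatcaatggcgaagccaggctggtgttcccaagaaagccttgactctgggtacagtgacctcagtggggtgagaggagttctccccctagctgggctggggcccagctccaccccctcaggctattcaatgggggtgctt
Serpina3n, chr12:104406458-104406707, plus strand: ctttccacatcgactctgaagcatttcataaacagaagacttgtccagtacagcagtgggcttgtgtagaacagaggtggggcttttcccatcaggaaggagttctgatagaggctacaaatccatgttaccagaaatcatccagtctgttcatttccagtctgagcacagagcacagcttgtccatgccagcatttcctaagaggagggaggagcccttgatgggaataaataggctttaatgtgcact
Slc1a3, chr15:8710808-8711057, minus strand: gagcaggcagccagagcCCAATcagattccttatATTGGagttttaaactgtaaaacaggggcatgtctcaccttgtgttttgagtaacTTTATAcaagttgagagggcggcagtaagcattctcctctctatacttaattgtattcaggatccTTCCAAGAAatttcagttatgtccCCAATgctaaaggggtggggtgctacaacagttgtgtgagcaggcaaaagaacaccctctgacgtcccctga
RefSeq promoters were matched for 9 of the 10 genes, all but Aqp4. Searched on both strands, TTCNNNGAA (bound by STAT factors) was found in 7.02% of 32851 promoters of this length and, of the 9, in Slc1a3, where TTCCAAGAA lay 96 to 88 bases before the start. Its stricter palindrome TTCCNGGAA was found in 0.913% of promoters and the nuclear factor I palindrome in 0.0365%, neither in any of the 9. The AP-1 sequence TGANTCA was found in 6.75% and in Gja1, and CCAAT in 33.8% and in Aldh1l1, S100b, Slc1a3 and Vim. TATAAA, the sequence of the TATA box, was found in 12.4% and in Slc1a3 and Vim. In Vim it lay 32 to 27 bases before the start. In Slc1a3 it lay on the opposite strand (TTTATA), 161 to 156 bases before the start, so this match is not called a TATA box. CACGTG (6.02% of promoters) and GGGGCGGGG (10.4%) were in none of the 9. Gfap and Serpina3n thus held no match to the 8 motifs in this window.

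In the annotation of the counting build, GRCm39, Gfap (ENSMUSG00000020932) spans chr11:102778159-102791738 on the minus strand, Serpina3n (ENSMUSG00000021091) chr12:104372810-104380597 on the plus strand and Slc1a3 (ENSMUSG00000005360) chr15:8663604-8741595 on the minus strand. The counts are sums over all exons of a gene. The kit marked strand, but which strand column was counted is not given in the sources used here. Vim shares 12.33% of its exonic bases with the opposite-strand non-coding gene Gm54102 and Aldh1l1 6.1% with Gm15756, so those shares cannot be assigned with certainty.

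Libraries held 16295042 to 107713193 reads on genes in the cortex and 12869149 to 68731008 in the hippocampus, and the least abundant gene, Cd44, had at least 16 and 24 reads in every library. The share of reads outside annotated genes fell into separate low and high sets on either side of 6.3%, with 30 low and 38 high cortex libraries and 29 low and 37 high hippocampus libraries. Mouse numbers in the labels form 3 series, here A, B and C, which are no stated batch. The libraries of mice 9877 (AA + RSD + minocycline) and 9887 (SS + minocycline) held identical counts in each tissue, and these 4 were left out. In the AA + RSD mouse 9674 the library labelled cortex had a summed level of 6 hippocampus markers of 388.8 CPM and of 6 cortex markers of 126.7, and the library labelled hippocampus had 36.8 and 503.5. Both go against their labels, so values are also given without them. A further 5 cortex libraries (mice 9621, 9813, 5801, 9890 and 5646) and 1 hippocampus library (mouse 9810) had low or high cortex markers for their label.

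Per kilobase of exon, glutamate transport led in unstressed, untreated AA mice. In the cortex Slc1a2, the main glial glutamate transporter, averaged 215.9 ± 19.2 CPM per kb (n = 12). Below it came S100b (55.7), Slc1a3 (39.7), Gfap (23.3), Gja1 (14.7), Aqp4 (10.7), Aldh1l1 (8.92), Vim (7.26), Serpina3n (4.29) and Cd44 (0.214). Only Slc1a2 above S100b, Slc1a3 above Gfap and Serpina3n above Cd44 were neighbours whose ranges did not overlap. In the hippocampus (n = 11) the order of mean CPM per kb was Slc1a2 (204.1), Gfap (72.7), S100b (54.6), Slc1a3 (46.5), Gja1 (17.8), Serpina3n (17.4), Aqp4 (15.99), Vim (10.1), Aldh1l1 (6.996) and Cd44 (0.518). Gfap, below Slc1a3 in the cortex, thus stood next to Slc1a2 here, and Serpina3n stood above Aqp4. Here the ranges of neighbours were apart for Slc1a2 above Gfap, Slc1a3 above Gja1 and Aldh1l1 above Cd44.

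Of the reactivity genes, Gfap, the classic filament marker of astrocytes, was 3.09-fold higher in the hippocampus than in the cortex of AA mice. In the 12 AA cortex libraries it ranged from 82.01 to 158 CPM (median 139.8) and in the 11 hippocampus libraries from 311 to 549 CPM (median 407). The groups did not overlap (log2 fold change 1.63 ± 0.11 SE, adjusted p = 1.23e-11, edgeR). Serpina3n, a secreted serine protease inhibitor that rises in reactive astrocytes, was 4.04-fold higher. It ranged from 11.9 to 21.3 CPM (median 16.5) in the cortex and from 42.5 to 95.4 CPM (median 67.95) in the hippocampus, again without overlap (2.01 ± 0.13, adjusted p = 5.23e-12).

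Cd44, a hyaluronan receptor of astrocytes and other cells, was low in both tissues, at 1.45 ± 0.636 CPM in the cortex and 3.51 ± 1.49 in the hippocampus, and was called higher in the hippocampus (log2 1.25 ± 0.25, adjusted p = 0.000177). Vim, the filament partner of Gfap that is also made by vascular and ependymal cells, was higher by a smaller step (0.46 ± 0.16, adjusted p = 0.0258), and its ranges overlapped (22.97 to 52.46 CPM against 29.9 to 77.3). Among the identity genes, the water channel Aqp4 (0.56 ± 0.12, adjusted p = 0.00047) and the gap junction gene Gja1 (0.26 ± 0.08, adjusted p = 0.0148) were higher in the hippocampus. Aldh1l1, a folate enzyme used as a pan-astrocyte marker, was the only one of the 10 called lower there. It ranged from 62.9 to 87.4 CPM (median 74.7) in the cortex and from 51.3 to 67.9 in the hippocampus (log2 −0.37 ± 0.07, adjusted p = 8.04e-05). Slc1a2, the calcium-binding S100b and Slc1a3, the glutamate transporter of radial glia and astrocytes, did not pass the test.

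In all, 7 of the 10 genes were called between the tissues of AA mice, 6 higher and 1 lower in the hippocampus, where 19.6% of 17665 genes were called higher and 17.5% lower. In SS mice 8 were called, 7 higher and 1 lower, where 14.7% of 17989 genes were called higher and 14.7% lower. The added gene was Slc1a3 (log2 0.27 ± 0.08, adjusted p = 0.0165). The other log2 fold changes in SS mice were 1.86 ± 0.23 for Gfap (adjusted p = 5.66e-06), 2.14 ± 0.18 for Serpina3n (4.60e-08), 1.15 ± 0.28 for Cd44 (0.00391), 0.67 ± 0.12 for Aqp4 (0.00021), 0.54 ± 0.18 for Vim (0.0263), 0.33 ± 0.08 for Gja1 (0.00325) and −0.34 ± 0.11 for Aldh1l1 (0.0254). Whether the tissue difference itself differed between genotypes was not tested. With the mouse as a block, 8 were called in AA mice, Slc1a3 included, and 8 in SS mice. The share of all genes called in that fit is not reported here.

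Within single mice the direction was nearly uniform for some of the genes. Over the 64 mice with both tissues the ratio of hippocampus to cortex CPM was above 1 for Gfap in 63 (median 3.14) and for Serpina3n in 63 (median 4.16). The exception was mouse 9674 for both, at 0.357 and 0.257. The ratio was above 1 for Cd44 in 57 mice, for Gja1 in 57, for Vim, Aqp4 and Slc1a3 in 56 each, for S100b in 29, for Slc1a2 in 23 and for Aldh1l1 in 4 (median 0.798).

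**Figure D1:**
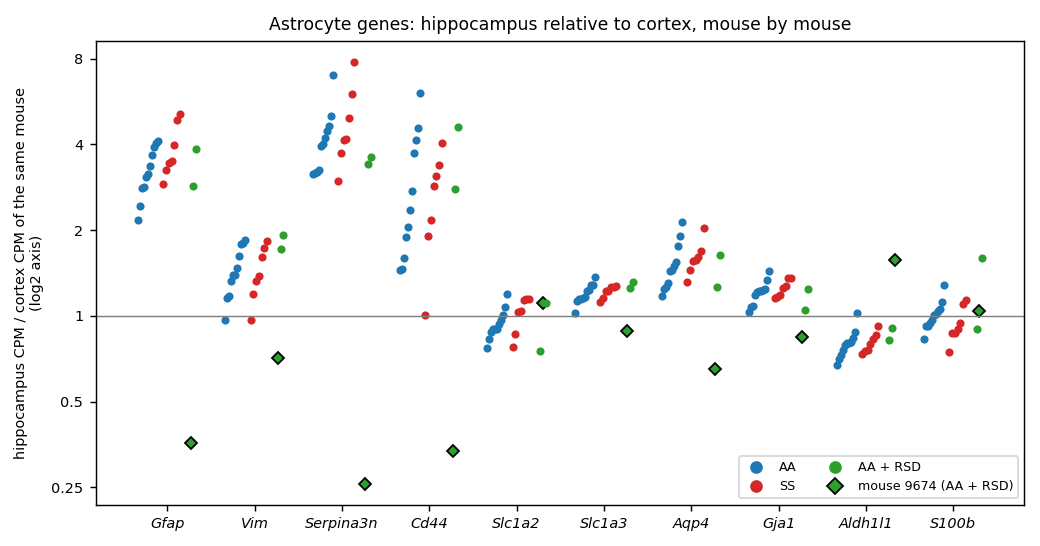
Ratio of hippocampus to cortex CPM of the 10 genes in single mice (log2 axis), with AA mice in blue, SS mice in red and AA + RSD mice in green, the diamond being mouse 9674. Gfap and Serpina3n lie at about 3.14 and 4.16 in the median over all mice and Aldh1l1 at 0.798, and mouse 9674 lies below 1 for Gfap and Serpina3n.

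The further lists showed no single direction between the tissues of AA mice. Of 28 further astrocyte identity genes 7 were called, 4 higher and 3 lower in the hippocampus (median log2 fold change 0.03, against 0.02 over all genes). They included Chrdl1, an astrocyte-secreted synapse factor (−2.31), the bicarbonate transporter Slc4a4 (0.52) and the metallothionein Mt3 (0.44). Of 12 tested further pan-reactive genes 4 were called higher and 1 lower (median 0.05), with Cebpd, a transcription factor of inflammation, at 2.42, complement C3 at 2.41 and the cytokine inhibitor Socs3 at −1.11. Of 11 neuroinflammatory (A1) genes 6 were called higher and 1 lower (median 0.36), with the class I gene H2-T23 at −1.92, the adhesion gene Amigo2 at 1.92 and the steroid receptor co-chaperone Fkbp5 at 0.83. Of 8 tested ischemia-induced (A2) genes 4 were called higher and 1 lower (median 0.39), with Cd109 at 2.95, Emp1 at 0.76 and S100a10 at −0.70. Of 11 endfoot genes 4 were called higher and 2 lower (median 0.04), with the syntrophin Sntb1 at 1.45, the cation channel Trpv4 at 1.38 and the dystrophin relative Utrn at −0.74. Of 11 glutamate cycle genes 3 were called higher and 3 lower (median −0.08), with the glutamate receptors Grm3 and Grm5 at −0.73 and 0.73 and the glutamine transporter Slc38a5 at 0.72.
In SS mice the called numbers, higher and lower, were 1 and 2 of the identity list, 4 and 1 of the pan-reactive, 4 and 1 of the A1, 2 and 1 of the A2, 2 and 1 of the endfoot and 2 and 2 of the glutamate list, with list medians of 0.05, 0.20, 0.32, 0.29, 0.06 and −0.03. Genes of large change among those called were Chrdl1 (−2.30), Slc4a4 (0.55) and Ttyh1 (−0.19), then C3 (2.71), Cebpd (1.87) and Socs3 (−1.15), Amigo2 (1.98), H2-T23 (−1.72) and Serping1 (1.08), Cd109 (3.15), S100a10 (−0.69) and Ptgs2 (0.42), Sntb1 (1.27) and Utrn (−0.78), and Grm5 (0.69), Grm3 (−0.64) and Slc1a1 (0.54). Microglia, neurons and vessel cells are also known to express several of the listed genes.

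Across the 8 groups of each tissue the levels of the reactivity genes were as follows. In the cortex the mean CPM of Gfap was 133 ± 21.5 in AA mice, 98.4 ± 35.5 in SS mice, 247 ± 184 in AA + RSD mice, 154 ± 17.5 in SS + RSD mice, 122 ± 42.2 in SS + minocycline mice, 147 ± 55.1 in AA + RSD + minocycline mice and 126 ± 40.5 in SS + RSD + minocycline mice, and 143 in the only AA + minocycline library. Its hippocampus mean was 415 ± 77.01 in AA mice, 362 ± 82.1 in SS mice, 366 ± 179 in AA + RSD mice, 411 ± 84.4 in SS + RSD mice, 426 ± 159.5 in SS + minocycline mice, 427 ± 70.6 in AA + RSD + minocycline mice and 341 ± 80.6 in SS + RSD + minocycline mice, and 275 in the only AA + minocycline library. In neither tissue did the ranges of any pair of groups of 3 or more libraries lie apart. The single AA + minocycline library is given by its value alone here and for the genes that follow.
For Serpina3n the cortex means were 16.8 ± 3.25 in AA mice, 13.7 ± 3.42 in SS mice, 35.6 ± 32.5 in AA + RSD mice, 15.8 ± 3.85 in SS + RSD mice, 15.5 ± 6.505 in SS + minocycline mice, 14.7 ± 4.49 in AA + RSD + minocycline mice and 13.9 ± 3.34 in SS + RSD + minocycline mice, and 12.7 in the only AA + minocycline library. Hippocampus means of Serpina3n were 68.2 ± 15.01 in AA mice, 61.4 ± 12.2 in SS mice, 45.96 ± 24.7 in AA + RSD mice, 76.5 ± 17.5 in SS + RSD mice, 63.6 ± 17.2 in SS + minocycline mice, 67.7 ± 14.8 in AA + RSD + minocycline mice and 59.3 ± 17.9 in SS + RSD + minocycline mice, and 44.3 in the only AA + minocycline library. The large SD of the AA + RSD groups came from mouse 9674, and the ranges of all groups of 3 or more libraries overlapped.
For Vim the cortex means were 34.5 ± 8.97 in AA mice, 38.9 ± 7.03 in SS mice, 41.7 ± 10.8 in AA + RSD mice, 45.9 ± 7.01 in SS + RSD mice, 39.6 ± 11.96 in SS + minocycline mice, 29.7 ± 6.63 in AA + RSD + minocycline mice and 39.999 ± 11.7 in SS + RSD + minocycline mice, and 42.3 in the only AA + minocycline library. Hippocampus means of Vim were 47.9 ± 14.6 in AA mice, 57.1 ± 18.3 in SS mice, 55.7 ± 15.1 in AA + RSD mice, 56.3 ± 13.8 in SS + RSD mice, 59.5 ± 23.9 in SS + minocycline mice, 47.1 ± 9.65 in AA + RSD + minocycline mice and 47.7 ± 11.1 in SS + RSD + minocycline mice, and 32.8 in the only AA + minocycline library. The ranges of groups of 3 or more libraries overlapped here too.
For Cd44 the cortex means were 1.45 ± 0.636 in AA mice, 1.38 ± 0.598 in SS mice, 2.03 ± 0.823 in AA + RSD mice, 2.202 ± 0.918 in SS + RSD mice, 1.34 ± 0.511 in SS + minocycline mice, 1.87 ± 0.965 in AA + RSD + minocycline mice and 1.81 ± 1.02 in SS + RSD + minocycline mice, and 2.42 in the only AA + minocycline library. Hippocampus means of Cd44 were 3.51 ± 1.49 in AA mice, 3.099 ± 0.993 in SS mice, 4.11 ± 2.83 in AA + RSD mice, 3.48 ± 2.68 in SS + RSD mice, 2.83 ± 0.927 in SS + minocycline mice, 3.37 ± 1.15 in AA + RSD + minocycline mice and 2.97 ± 1.29 in SS + RSD + minocycline mice, and 5.75 in the only AA + minocycline library. Its relative spread within groups was wide, and among groups of 3 or more libraries its ranges overlapped.

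Of the identity genes, the glutamate transporter Slc1a2 had cortex means of 3022 ± 268 in AA mice, 2775 ± 199 in SS mice, 3112 ± 340.1 in AA + RSD mice, 3059.9 ± 805 in SS + RSD mice, 2817 ± 794 in SS + minocycline mice, 2942 ± 291 in AA + RSD + minocycline mice and 2654 ± 471 in SS + RSD + minocycline mice, and 3221 in the only AA + minocycline library. Slc1a2 averaged, in the hippocampus, 2856 ± 166 in AA mice, 2809 ± 290.2 in SS mice, 3043 ± 451 in AA + RSD mice, 3194 ± 697 in SS + RSD mice, 2771 ± 496 in SS + minocycline mice, 2660.5 ± 316 in AA + RSD + minocycline mice and 2672 ± 377 in SS + RSD + minocycline mice, and 3280.1 in the only AA + minocycline library. The ranges of all groups with 3 or more libraries overlapped.
For Slc1a3 the cortex means were 579.8 ± 96.9 in AA mice, 585 ± 47.8 in SS mice, 647 ± 126 in AA + RSD mice, 708 ± 129 in SS + RSD mice, 544 ± 69.5 in SS + minocycline mice, 573 ± 106 in AA + RSD + minocycline mice and 627 ± 189 in SS + RSD + minocycline mice, and 531 in the only AA + minocycline library. Hippocampus means of Slc1a3 were 678 ± 77.6 in AA mice, 716 ± 67.2 in SS mice, 726 ± 37.1 in AA + RSD mice, 801 ± 81.03 in SS + RSD mice, 696 ± 114 in SS + minocycline mice, 656 ± 67.9 in AA + RSD + minocycline mice and 692 ± 78.9 in SS + RSD + minocycline mice, and 581 in the only AA + minocycline library. Again the groups of 3 or more libraries overlapped.
For Aqp4 the cortex means were 70.3 ± 14.2 in AA mice, 59.7 ± 10.8 in SS mice, 94.8 ± 15.02 in AA + RSD mice, 84.5 ± 35.95 in SS + RSD mice, 58.8 ± 16.5 in SS + minocycline mice, 77.4 ± 22.1 in AA + RSD + minocycline mice and 74.6 ± 34.3 in SS + RSD + minocycline mice, and 82.3 in the only AA + minocycline library. Hippocampus means of Aqp4 were 105 ± 19.3 in AA mice, 96.2 ± 11.2 in SS mice, 107 ± 31.9 in AA + RSD mice, 109 ± 22.6 in SS + RSD mice, 92.5 ± 11.9 in SS + minocycline mice, 102 ± 18.8 in AA + RSD + minocycline mice and 93.6 ± 19.6 in SS + RSD + minocycline mice, and 91.9 in the only AA + minocycline library. In the cortex the AA + RSD libraries (82.9, 89.9 and 111.7 CPM, the last from mouse 9674) lay above all SS (at most 69.5) and SS + minocycline libraries (at most 75.0). All 3 had a low share of reads outside genes, and 6 of the 8 SS and 3 of the 4 SS + minocycline libraries a high share. The number of all genes that lay apart in this way was not counted.
For Gja1 the cortex means were 181 ± 20.02 in AA mice, 154 ± 14.2 in SS mice, 196 ± 17.5 in AA + RSD mice, 194 ± 44.3 in SS + RSD mice, 137 ± 29.6 in SS + minocycline mice, 166 ± 22.6 in AA + RSD + minocycline mice and 159 ± 25.9 in SS + RSD + minocycline mice, and 158 in the only AA + minocycline library. Gja1 averaged, in the hippocampus, 219 ± 27.97 in AA mice, 197 ± 23.1 in SS mice, 205 ± 39.4 in AA + RSD mice, 221 ± 38.03 in SS + RSD mice, 182 ± 22.2 in SS + minocycline mice, 206 ± 19.1 in AA + RSD + minocycline mice and 194 ± 14.2 in SS + RSD + minocycline mice, and 180.0 in the only AA + minocycline library. Groups of 3 or more libraries overlapped in both tissues.

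For Aldh1l1 the cortex means were 75.97 ± 7.96 in AA mice, 69.3 ± 9.16 in SS mice, 77.1 ± 10.7 in AA + RSD mice, 82.2 ± 5.32 in SS + RSD mice, 69.7 ± 10.3 in SS + minocycline mice, 67.7 ± 10.6 in AA + RSD + minocycline mice and 64.96 ± 10.4 in SS + RSD + minocycline mice, and 62.1 in the only AA + minocycline library. Aldh1l1 averaged, in the hippocampus, 59.6 ± 5.302 in AA mice, 55.7 ± 6.63 in SS mice, 81.96 ± 19.2 in AA + RSD mice, 62.6 ± 6.96 in SS + RSD mice, 57.1 ± 7.43 in SS + minocycline mice, 53.8 ± 4.93 in AA + RSD + minocycline mice and 49.3 ± 5.48 in SS + RSD + minocycline mice, and 51.1 in the only AA + minocycline library. There the AA + RSD libraries, at 69.5, 72.3 and 104.0 CPM (the last from mouse 9674), lay above every AA library (at most 67.9) and above every AA + RSD + minocycline, SS, SS + minocycline and SS + RSD + minocycline library. How many of all genes lay apart in this way was not counted.
For S100b the cortex means were 111 ± 27.8 in AA mice, 114 ± 24.7 in SS mice, 122 ± 31.02 in AA + RSD mice, 138 ± 19.3 in SS + RSD mice, 126 ± 67.1 in SS + minocycline mice, 110.02 ± 33.4 in AA + RSD + minocycline mice and 121 ± 35.1 in SS + RSD + minocycline mice, and 70.6 in the only AA + minocycline library. S100b averaged, in the hippocampus, 109 ± 30.4 in AA mice, 109 ± 33.99 in SS mice, 138 ± 23.7 in AA + RSD mice, 127 ± 12.5 in SS + RSD mice, 121 ± 53.1 in SS + minocycline mice, 112 ± 35.5 in AA + RSD + minocycline mice and 109.5 ± 27.9 in SS + RSD + minocycline mice, and 72.9 in the only AA + minocycline library. Groups of 3 or more libraries overlapped, and values within a group are split by the share of reads outside genes further on.

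**Figure D2:**
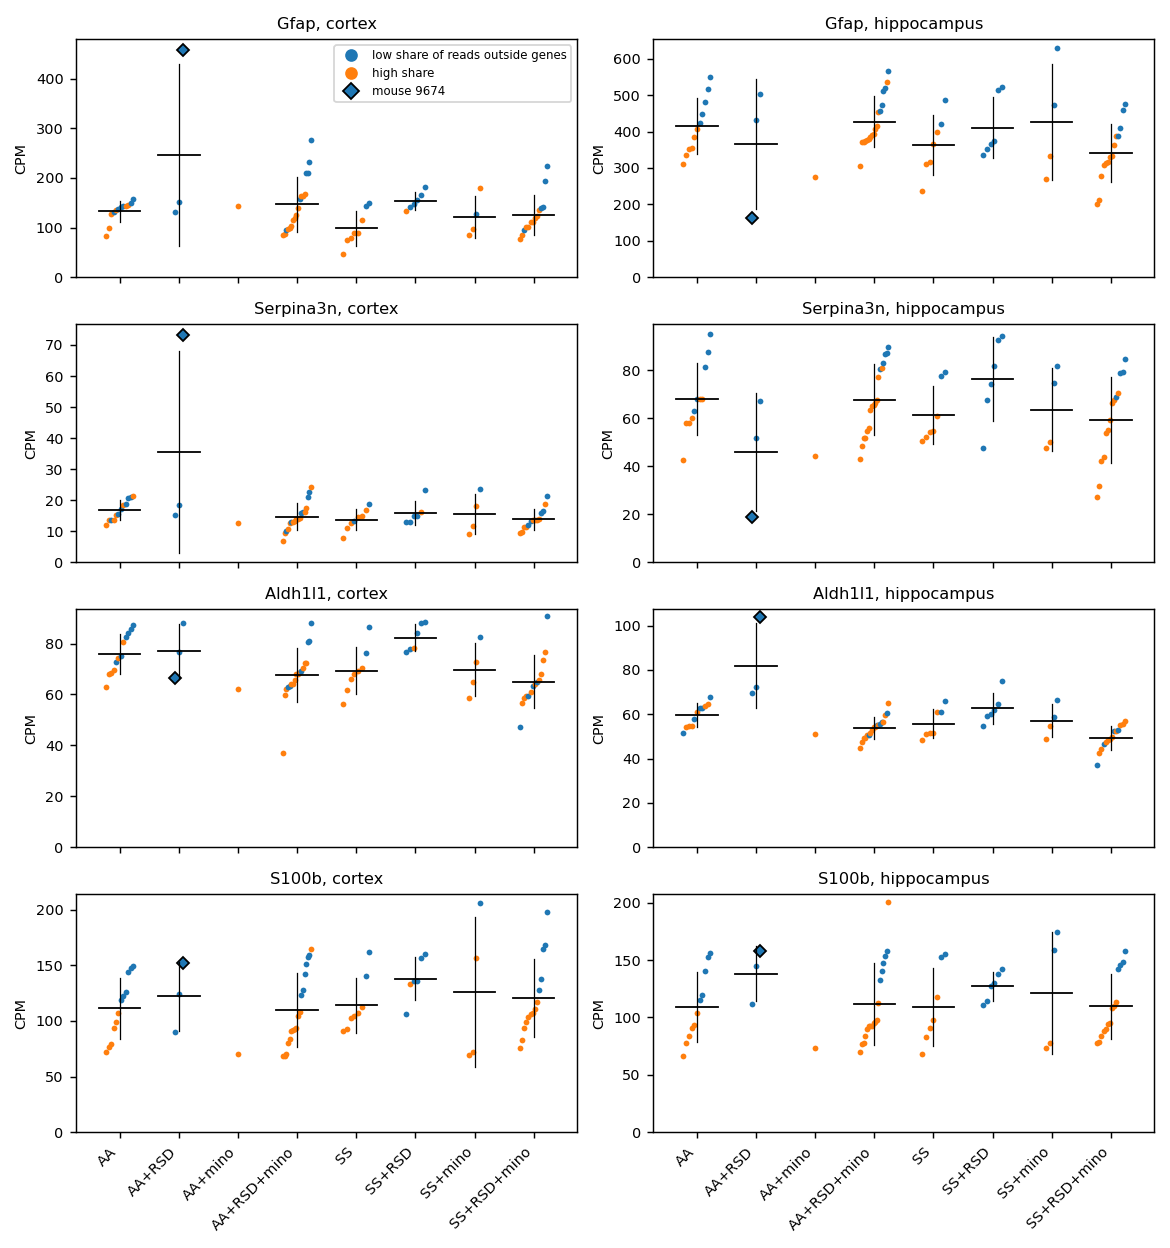
CPM of Gfap, Serpina3n, Aldh1l1 and S100b in single libraries of the 8 groups in cortex (left) and hippocampus (right), in blue for libraries with a low share of reads outside genes and in orange for those with a high share, with lines at the mean ± SD and a diamond for mouse 9674. Gfap of the AA mice averages 133 CPM in the cortex and 415 in the hippocampus, and orange S100b points lie mostly below blue ones.

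Between SS and AA mice without RSD or minocycline, none of the 10 genes passed the test in either tissue. The number called was 0 of 10 in the cortex, where 0.214% of genes were called, and 0 in the hippocampus (0.159%), and 0 and 0 by DESeq2. At an unadjusted p under 0.05 edgeR found 2 and 1, among 1501 of 22926 and 862 of 23215 genes. In the cortex the log2 fold changes of the 10 lay between −0.46 and 0.14, with Gfap at −0.46 ± 0.22 (adjusted p = 0.745), Serpina3n at −0.32 ± 0.21 (0.801) and Aqp4 at −0.27 ± 0.20 (0.833). Gfap ranged from 46.3 to 149 CPM (median 88.95) in the 8 SS cortex libraries, against 82.0 to 157.9 in AA mice. In the hippocampus the 10 lay between −0.22 and 0.23, with Gfap at −0.22 ± 0.18, Serpina3n at −0.18 ± 0.21 and Aqp4 at −0.15 ± 0.14, each with an adjusted p of 1. Summed over 5 endothelial genes, the SS libraries held 242.6 to 283.5 CPM in the cortex against 143.7 to 268.4 in AA mice, and the part of vessels in these values was not tested.

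After RSD, 0 of 10 were called between the genotypes in the cortex (0.493% of genes called) and 0 in the hippocampus (0.78%), and 0 and 0 by DESeq2. At an unadjusted p under 0.05 edgeR found 2 and 2, among 1111 of 22926 and 2089 of 23215 genes. The AA + RSD group held 3 mice, 1 of them mouse 9674. Serpina3n in the cortex was from 12.8 to 23.2 CPM (median 14.8) in the 6 SS + RSD mice and 15.2, 18.5 and 73.1 CPM in the AA + RSD mice 9643, 9646 and 9674. Its log2 fold change was −1.18 ± 0.31 (adjusted p = 0.0661) with mouse 9674 and −0.09 ± 0.32 (adjusted p = 1) without it. For Gfap the value was −0.69 ± 0.33 (adjusted p = 0.944), and 0.12 ± 0.37 without that mouse. Aqp4 stood at −0.18 ± 0.30, and −0.03 ± 0.37 without it. In the hippocampus Serpina3n was at 0.79 ± 0.31 (adjusted p = 0.3) and 0.43 ± 0.34 without mouse 9674, Gfap at 0.21 ± 0.26 and −0.12 ± 0.28, and Aqp4 at 0.07 ± 0.20 and −0.13 ± 0.23. So the sign for Gfap turned in both tissues with 1 mouse.

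Between the larger groups given both RSD and minocycline, 14 SS and 18 AA mice, 0 of 10 were called in the cortex (0.624% of genes called) and 0 in the hippocampus (2.74%), and 0 and 0 by DESeq2. At an unadjusted p under 0.05 edgeR found 2 and 2, among 1893 of 22926 and 1935 of 23215 genes. Gfap was at −0.25 ± 0.17 in the cortex and −0.33 ± 0.13 in the hippocampus (adjusted p = 0.763 and 0.297), Serpina3n at −0.11 ± 0.16 and −0.20 ± 0.15 (0.935 and 0.963), and Aqp4 at −0.08 ± 0.15 and −0.12 ± 0.10 (0.954 and 0.979). Among 15 further pan-reactive genes, Lcn2, a secreted iron-binding protein of inflammation, was higher in SS mice in the cortex (log2 3.18 ± 0.57, adjusted p = 0.000477) and in the hippocampus (2.03 ± 0.54, adjusted p = 0.0203). The cytokine receptor Osmr was higher in the cortex (0.62 ± 0.13) and Aspg lower in the hippocampus (−0.51 ± 0.15). None of the other 5 lists had a gene called in this comparison. In the interaction of genotype with RSD, which compares the RSD difference of SS mice with that of AA mice, 0 of 10 were called in the cortex (0.236% of genes) and 0 in the hippocampus (0.0474%), and 0 and 0 by DESeq2. At an unadjusted p under 0.05 edgeR found 1 and 2, among 676 of 22926 and 1545 of 23215 genes. Serpina3n was at −0.87 ± 0.38 in the cortex and 0.97 ± 0.37 in the hippocampus (adjusted p = 1 and 0.499), Gfap at −0.24 ± 0.40 and 0.44 ± 0.32, and Aqp4 at 0.09 ± 0.36 and 0.22 ± 0.25. Without mouse 9674 the values for Serpina3n were 0.28 ± 0.38 and 0.61 ± 0.39, and those for Gfap 0.63 ± 0.43 and 0.0986 ± 0.329, so that the cortex sign turned for both genes. For Aqp4 they were 0.28 ± 0.43 and 0.027 ± 0.267.

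In SS mice all 10 genes had higher fitted levels after RSD in both tissues, but 0 of 10 passed the test in the cortex (2.57% of genes called) or in the hippocampus (3.11%). At an unadjusted p under 0.05 the numbers in edgeR were 6 and 4, among 5508 of 19906 and 4050 of 20701 genes. DESeq2 called 2 and 0, and its share over all genes is not reported here. In the cortex Gfap ranged from 46.3 to 149 CPM (median 88.95) in 8 SS mice and from 133 to 181 CPM (median 151) in 6 SS + RSD mice, so that the groups overlapped at the upper end of the SS mice (log2 0.75 ± 0.24, adjusted p = 0.0655). Aqp4 ranged from 43.6 to 69.5 CPM (median 64.8) and from 62.05 to 156 CPM (median 72.7) (0.62 ± 0.27, adjusted p = 0.142), the highest library being that of mouse 9621. Serpina3n ranged from 7.79 to 18.8 CPM (median 13.9) and from 12.8 to 23.2 CPM (median 14.8) (0.32 ± 0.21, adjusted p = 0.315). The 10 lay between 0.26 and 0.78 with a median of 0.39, against 0.08 over all genes, of which 59.3% were positive. In the hippocampus they lay between 0.07 and 0.42 with a median of 0.27, against 0.06 over all genes (57.2% positive), with Gfap at 0.28 ± 0.22 (adjusted p = 0.512), Serpina3n at 0.42 ± 0.24 (0.36) and Aqp4 at 0.28 ± 0.16 (0.348). The 10 genes come from the same libraries, so their shared sign is not 10 observations.

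The cortex result sat near the threshold and depended on the libraries and model. Fitted with these 2 groups alone, 5 of the 10 were called higher in the cortex, namely Slc1a3 (log2 0.35, adjusted p = 0.0202), Gja1 (0.41, 0.0245), Gfap (0.71, 0.0278), Aldh1l1 (0.32, 0.0323) and Aqp4 (0.58, 0.0455), in a fit that called 1248 of 17394 genes higher and 2100 lower. All 6 SS + RSD mice belonged to series A, to which only 2 of the SS mice of each tissue belonged. In the cortex these 2 had Gfap levels of 144.2 and 149.3 CPM, within the SS + RSD range, and the 6 SS mice of series B had 46.3 to 115.8. Within series A the log2 fold change of Gfap was 0.08 ± 0.11 in the cortex and −0.10 ± 0.20 in the hippocampus, and the median of the 10 was 0.11 and 0.01. Of the 5 SS + RSD and 2 SS cortex libraries with a low share of reads outside genes, Gfap differed by 0.12 ± 0.27. Summed over 6 microglial genes, none at 0, the SS + RSD mice held 213.2 to 300.5 CPM in the cortex and the SS mice 171.5 to 242.6, and in the hippocampus 229.4 to 347.2 and 204.8 to 274.0. Series, share and microglial level moved with RSD, and their part in the values was not tested further.

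Of the further lists, 1 gene was called in SS mice after RSD, Clcf1, a cytokine of the A2 list, which was lower in the hippocampus (−1.003 ± 0.276, adjusted p = 0.0447). In the cortex 0 were called in any of the 6 lists. Their cortex medians were 0.23 for identity, 0.31 for pan-reactive, 0.47 for A1, 0.38 for A2, 0.12 for endfoot and 0.18 for glutamate cycle genes. In the hippocampus they were 0.18, 0.11, 0.28, 0.43, 0.23 and 0.11.

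With minocycline, all 10 genes had lower fitted levels than in SS + RSD mice in both tissues, and Aldh1l1 fell in both. In the cortex Aldh1l1 ranged from 76.7 to 88.5 CPM (median 81.2) in 6 SS + RSD mice and from 47.1 to 90.8 CPM (median 63.7) in 14 SS + RSD + minocycline mice. The SS + RSD libraries lay in the upper part of the treated range (log2 −0.46 ± 0.10, adjusted p = 0.0109). In the hippocampus it ranged from 54.7 to 75.2 CPM (median 61.1) and from 37.3 to 57.1 CPM (median 49.3), overlapping between 54.7 and 57.1 CPM only (−0.40 ± 0.09, adjusted p = 0.0237). Gja1 fell in the cortex, from 194 ± 44.3 to 159 ± 25.9 CPM (−0.40 ± 0.12, adjusted p = 0.0338), and Slc1a2 in the hippocampus, from 3194 ± 697 to 2672 ± 377 CPM (−0.31 ± 0.09, adjusted p = 0.0452), with overlapping ranges for both. These were 2 of 10 called lower in the cortex, where 2.47% of genes were called lower, and 2 of 10 in the hippocampus, where 1.08% were.

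The reactivity genes and Aqp4 did not pass the test under minocycline. In the cortex Gfap was at −0.40 ± 0.21 (adjusted p = 0.224), Serpina3n at −0.31 ± 0.19 (0.305) and Aqp4 at −0.29 ± 0.24 (0.458). In the hippocampus the values were −0.32 ± 0.19 (0.288), −0.42 ± 0.21 (0.199) and −0.27 ± 0.14 (0.217). Gfap ranged from 77.03 to 224 CPM (median 115) in the treated cortex libraries, a range that took in all SS + RSD values (132.6 to 180.8). The median of the 10 was −0.32 in the cortex and −0.28 in the hippocampus, against −0.05 and −0.03 over all genes. This comparison and the one before share the SS + RSD libraries, so opposite signs in them are not independent.

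No mouse series held both groups, so treatment and series could be separated only through the SS and SS + minocycline mice. All 6 SS + RSD mice were of series A, and of the 14 SS + RSD + minocycline mice 12 were of series B and 2 of series C. With series as a term, Aldh1l1 in the hippocampus was at 0.013 ± 0.155. Gfap was then at 0.63 ± 0.34 in the cortex and 0.36 ± 0.34 in the hippocampus. Aldh1l1 and Gja1 in the cortex and Slc1a2 and Aqp4 in the hippocampus kept their sign. A low share of reads outside genes was found in 5 of 6 SS + RSD cortex libraries and in 5 of 14 treated ones, and in 6 of 6 and 4 of 14 in the hippocampus. With the share as a term none of the 10 was called, and Aldh1l1 was at −0.30 ± 0.10 in the cortex (adjusted p = 0.234) and −0.28 ± 0.09 in the hippocampus (0.547). Within low-share libraries, 5 against 5 in the cortex and 4 against 6 in the hippocampus, Aldh1l1 was at −0.42 ± 0.15 (adjusted p = 0.88) and −0.36 ± 0.10 (0.249), while Gfap was at −0.05 ± 0.20 and 0.12 ± 0.14. In the hippocampus 0 of the 10 were called without SS + RSD mouse 5354, 5391 or 9615, and 1 without 9616, 9621 or the SS + RSD + minocycline mouse 7078. In the cortex Aldh1l1 alone was called without SS + RSD mouse 5391, 9615, 9616 or 9621. The share of all genes called with the share term, in low-share libraries or without these mice is not reported here. These counts can thus not be read as particular to the 10 genes. Microglial sums were 213.2 to 300.5 CPM in SS + RSD and 171.2 to 290.3 in treated cortex libraries, and 229.4 to 347.2 and 189.2 to 298.1 in the hippocampus.

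**Figure D3:**
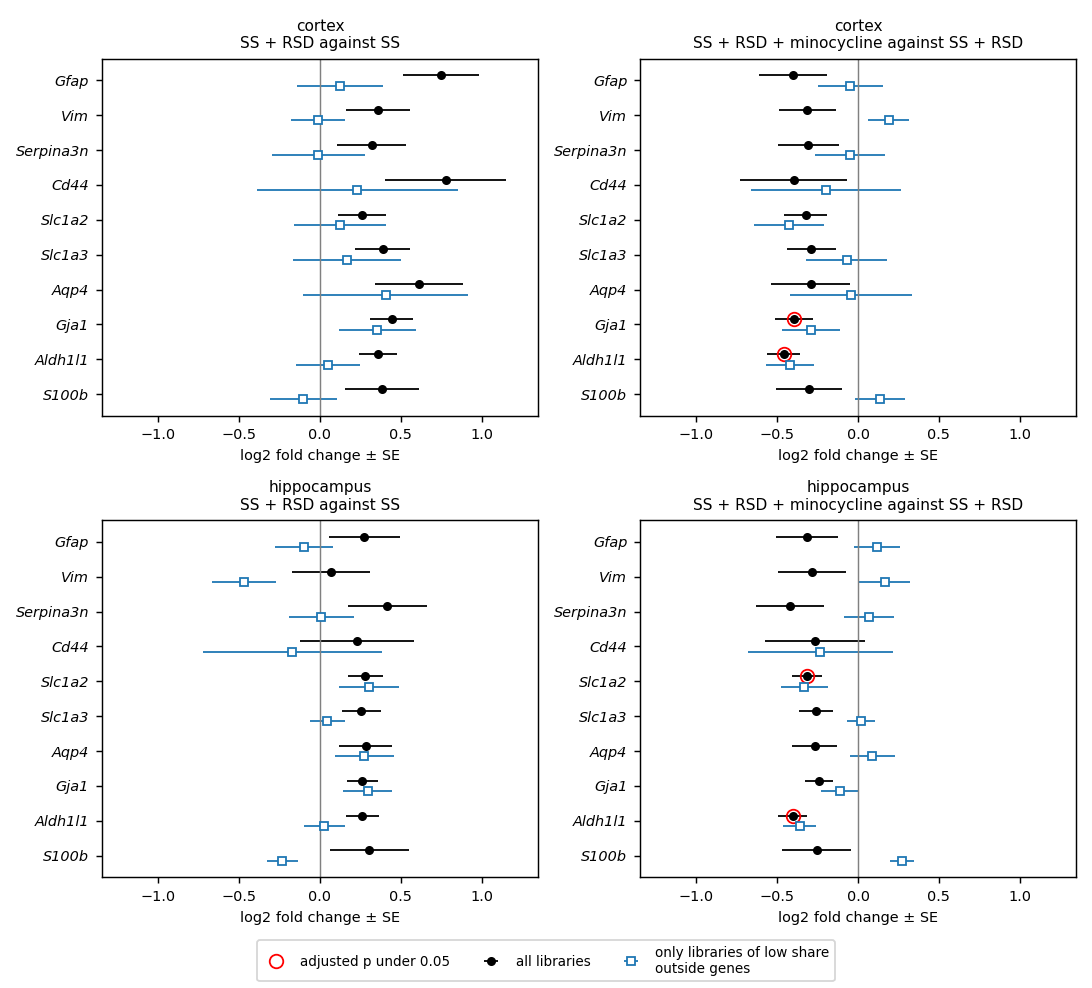
Log2 fold changes ± SE of the 10 genes in SS mice after RSD (left) and with minocycline during RSD (right), in cortex (top) and hippocampus (bottom), from all libraries (black) and from libraries of low share outside genes (blue squares), with red rings at an adjusted p under 0.05. The black points lie right of 0 on the left and left of 0 on the right, and with low-share libraries Gfap lies at 0.12 and −0.10 after RSD.

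In the further lists, 4 of 28 identity genes fell in the cortex with minocycline, the largest changes being those of the gap junction gene Gjb6 (−0.55 ± 0.14), the glycolytic enzyme Aldoc (−0.40 ± 0.13) and Mlc1 (−0.39 ± 0.13), a membrane protein of endfeet. Gjb6 and Mlc1 were also the 2 of 11 endfoot genes called. The small heat shock gene Hspb1 fell among 15 pan-reactive genes (−1.08 ± 0.20), Fbln5 (−0.71 ± 0.19) and H2-T23 (−0.60 ± 0.20) among 11 A1 genes, and Emp1 (−0.79 ± 0.24) and Ptgs2 (−0.65 ± 0.16) among 8 tested A2 genes. None of the 11 glutamate cycle genes was called. In the hippocampus Steap4 (−1.60 ± 0.45), Hspb1 (−0.82 ± 0.25) and Stat3 (−0.20 ± 0.06) fell among 14 tested pan-reactive genes and Emp1 (−0.71 ± 0.20) among 9 tested A2 genes. None of the A1, endfoot or glutamate lists was called there. The list medians were −0.21, −0.20, −0.36, −0.48, −0.09 and −0.13 in cortex and −0.18, −0.17, −0.50, −0.22, −0.13 and −0.05 in hippocampus, in the order identity, pan-reactive, A1, A2, endfoot and glutamate.

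Minocycline without RSD was given to 4 SS mice. In the cortex their Gfap levels were 85.1, 96.6, 127.2 and 179.6 CPM in mice 7108, 7121, 9889 and 9888, and in the hippocampus 270.7, 333.1, 471.7 and 629.8. Both mice of series C were thus below both of series B in each tissue. None of the 10 was called in the cortex (0% of genes called) or the hippocampus (0%). At an unadjusted p under 0.05 edgeR found 0 of the 10 in each tissue, among 1406 and 449 genes, and DESeq2 called 0 genes. Gfap was at 0.38 ± 0.27 in the cortex and 0.32 ± 0.25 in the hippocampus (adjusted p = 0.803 and 0.981), Serpina3n at 0.25 ± 0.24 and 0.13 ± 0.27 (0.856 and 0.982), and Aqp4 at 0.05 ± 0.31 and 0.03 ± 0.18 (0.988 and 0.993). Within series B alone, 2 against 6 cortex libraries, 4 of the 10 were called higher, namely Gfap (1.06 ± 0.32, adjusted p = 0.0207), S100b (1.00 ± 0.27, 0.0113), Serpina3n (0.85 ± 0.28, 0.03) and Aldh1l1 (0.42 ± 0.14, 0.0334), where 2916 of 19253 genes were called higher. None was called within series B in the hippocampus.

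In AA mice the values of RSD rested on mouse 9674, whose tissues go against their labels. In the cortex Gfap was 150.6, 131.0 and 458.4 CPM in the AA + RSD mice 9643, 9646 and 9674, and in the hippocampus 431.6, 503.1 and 163.6. Serpina3n was 15.2, 18.5 and 73.1 CPM in their cortex libraries and 51.9, 67.1 and 18.8 in their hippocampus libraries. The first 2 mice lay within the AA range of their tissue, and mouse 9674 outside it in both. Between AA + RSD and AA mice, 0 of 10 were called in the cortex (0.853% of genes called), and 0 by DESeq2. At an unadjusted p under 0.05 edgeR found 3, among 3164 of 21927 genes. Serpina3n was at 1.12 ± 0.30 (adjusted p = 0.0637) and 0.01 ± 0.30 without mouse 9674, Gfap at 0.92 ± 0.30 (0.184) and 0.09 ± 0.33, and Aqp4 at 0.45 ± 0.22 (0.341) and 0.30 ± 0.26. In the hippocampus 1 of 10 was called higher, where 1.05% of genes were. It was Aldh1l1, at 69.5, 72.3 and 104.0 CPM in mice 9646, 9643 and 9674 against 51.3 to 67.9 in 11 AA mice (log2 0.48 ± 0.12, adjusted p = 0.0276). Without mouse 9674 it was at 0.23 ± 0.12 (adjusted p = 0.899). Gfap was at −0.19 ± 0.22 with and 0.15 ± 0.21 without that mouse, Serpina3n at −0.59 ± 0.27 and −0.22 ± 0.28, and Aqp4 at 0.03 ± 0.18 and 0.23 ± 0.20.

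With minocycline during RSD in AA mice, 1 of 10 was called lower in the cortex, where 1.93% of genes were, and 1 of 10 in the hippocampus (1.99%). In the cortex it was Serpina3n, from 6.97 to 24.2 CPM (median 13.96) in 18 treated mice (log2 −1.34 ± 0.28, adjusted p = 0.00447), and −0.23 ± 0.28 (adjusted p = 0.744) without mouse 9674. In the hippocampus it was Aldh1l1, from 44.7 to 65.1 CPM (median 54.1) (−0.62 ± 0.11, adjusted p = 0.000863), and −0.37 ± 0.11 (adjusted p = 0.585) without that mouse. The treated Aldh1l1 levels, at most 65.1 CPM, lay below the 69.5 and 72.3 of the other AA + RSD mice, which were only 2. How many of all genes lay apart in this way was not counted. All 3 AA + RSD hippocampus libraries had a low share of reads outside genes, and 13 of the 18 treated ones a high share. Gfap was at −0.80 ± 0.29 in the cortex and 0.25 ± 0.21 in the hippocampus (adjusted p = 0.0887 and 0.54), and at 0.03 ± 0.33 and −0.09 ± 0.21 without mouse 9674. Aqp4 was at −0.34 ± 0.21 and −0.07 ± 0.18, and at −0.20 ± 0.25 and −0.26 ± 0.20 without it. Serpina3n in the hippocampus was at 0.59 ± 0.26 (adjusted p = 0.213), and at 0.23 ± 0.27 (adjusted p = 0.821) without it. All 3 AA + RSD mice were of series A and none of the treated mice was (15 of series B, 3 of series C). Series and treatment could thus be separated only through the untreated AA mice, which spanned series A and B.

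**Figure D4:**
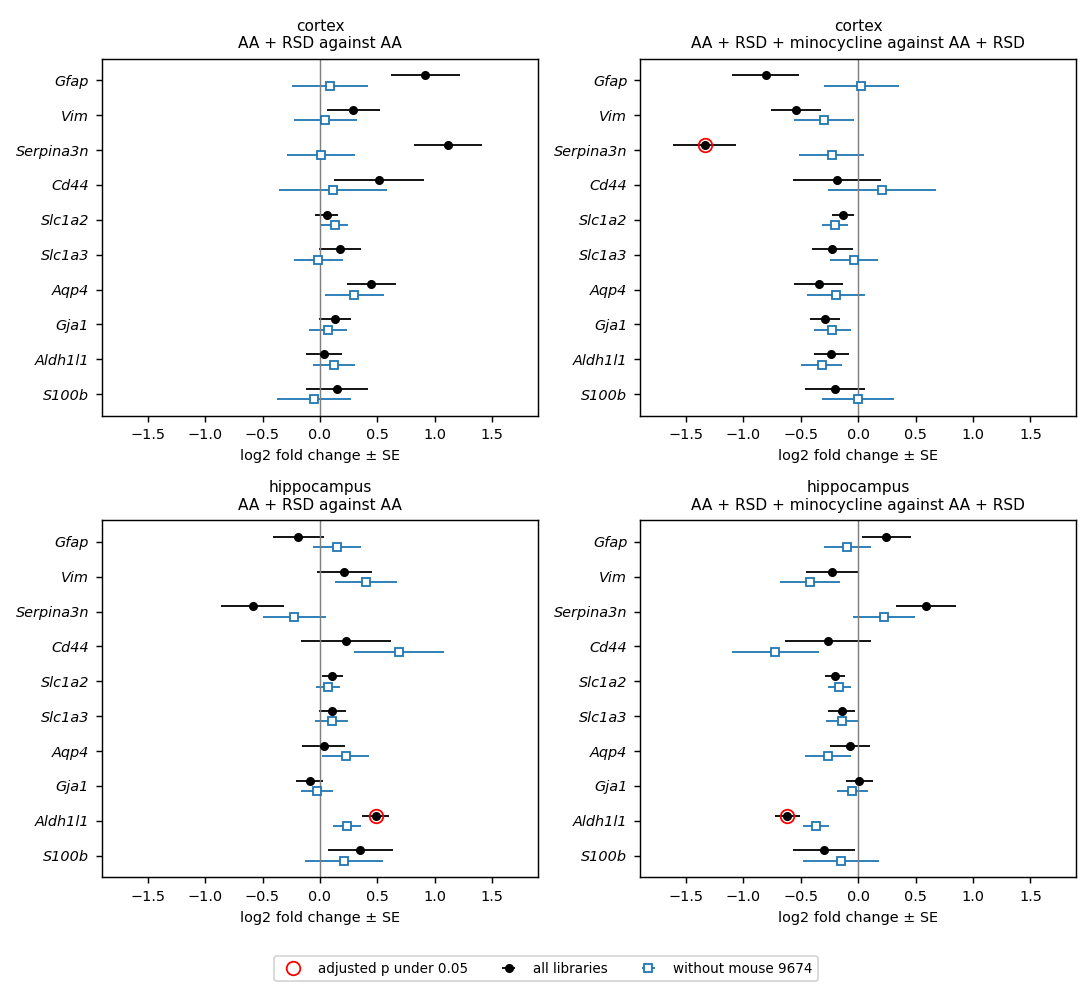
Log2 fold changes ± SE of the 10 genes in AA mice after RSD (left) and with minocycline during RSD (right), in cortex (top) and hippocampus (bottom), with all libraries (black) and without mouse 9674 (blue squares), and red rings at an adjusted p under 0.05. Without mouse 9674 Serpina3n in the cortex lies at 0.01 and −0.23, and Aldh1l1 in the hippocampus at 0.23 and −0.37.

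Of the further lists in AA mice, RSD called Cebpd (1.81 ± 0.41) and Cd109 (1.86 ± 0.43) higher in the cortex, and Chrdl1 (1.44 ± 0.26) and H2-T23 (1.21 ± 0.23) higher and Fkbp5 (−0.59 ± 0.12) lower in the hippocampus. All 5 are genes named above for a difference between the tissues of AA mice, and each moved in the direction of the other tissue. With minocycline the same 5 genes were called with the opposite sign, Cebpd at −1.74, Cd109 at −2.43, Chrdl1 at −1.56, H2-T23 at −1.21 and Fkbp5 at 0.40. Also called were Grin2c (0.58), Emp1 (−0.94), Ptgs2 (−0.75), Trpv4 (−1.54) and Slc1a1 (−0.28) in the cortex, and Utrn (−0.70) and Grm3 (−0.71) in the hippocampus. Chrdl1 was also called lower in SS + RSD than in AA + RSD mice in the hippocampus (adjusted p = 0.0307). Without mouse 9674 none of the 6 lists had a gene called in any of these comparisons, which share the 3 AA + RSD mice.

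The levels of regional markers moved with several of the 10 genes. In 6 cortex libraries, of mice 9674, 9621, 9813, 5801, 9890 and 5646, the summed level of 6 cortex markers was 126.7 to 227.7 CPM, against 366.9 to 619.6 in the other 60, and the summed level of 5 striatum markers had a median of 403.6 CPM against 135.8. In mouse 9674, whose markers go against its label, the striatum sum was 100.5 CPM, and the 5 others of the 6 had a median of 531.7. Slc1a3 was 792.2 to 1059.1 CPM in the 6 (from 808.8 without mouse 9674) and at most 777.7 in the 60 libraries, so the sets did not overlap. The number of all genes that lay apart in this way was not counted. Aqp4 was 93.5 to 162.8 CPM in the 6 with a median of 125.4, against a median of 65.7 and a highest value of 124.9 in the 60. The median of Cd44 was 3.26 CPM against 1.47. The 6 came from 4 groups, 1 AA + RSD, 1 SS + RSD, 1 AA + RSD + minocycline and 3 SS + RSD + minocycline. Without the libraries whose regional markers stood apart, 3 of 10 genes were called lower in the cortex with minocycline in SS + RSD mice, namely Gja1 (−0.38 ± 0.11, adjusted p = 0.0245), Aldh1l1 (−0.43 ± 0.11, 0.0196) and Slc1a3 (−0.39 ± 0.11, 0.0313), in place of 2, where 656 of 19257 genes were called lower.

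**Figure D5:**
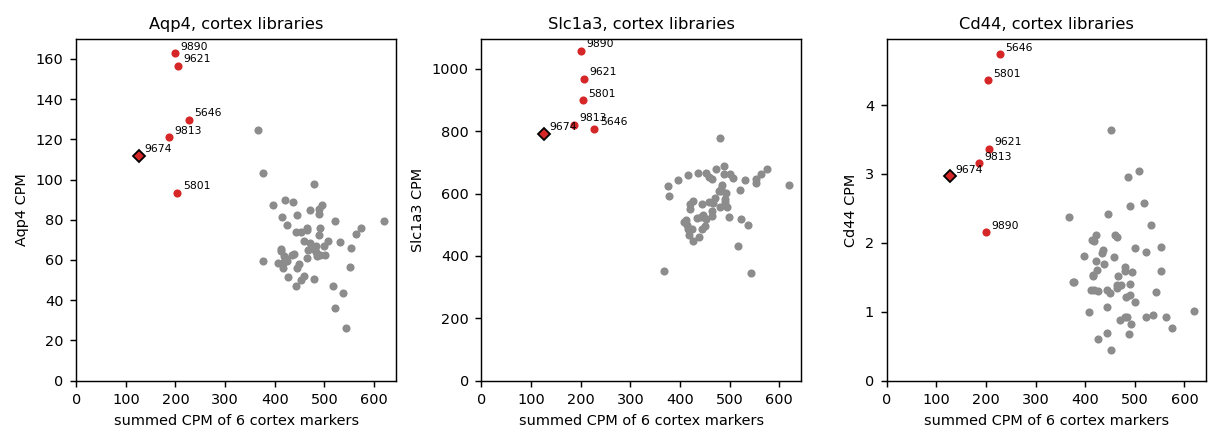
CPM of Aqp4, Slc1a3 and Cd44 in 66 cortex libraries against the summed CPM of 6 cortex markers, with the 6 libraries under 300 CPM in red. The red points lie at 792.2 CPM or more for Slc1a3 and at 93.5 or more for Aqp4.

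The share of reads outside genes also moved with some of the 10 genes inside single groups. In AA mice S100b was 118.6 to 149.7 CPM in the 6 low-share cortex libraries and 72.3 to 107.0 in the 6 high-share ones, and 115.4 to 156.0 and 66.8 to 103.6 in the hippocampus. Slc1a3 was 600.5 to 777.7 and 448.7 to 527.0 CPM in the cortex and 697.3 to 793.2 and 597.1 to 646.6 in the hippocampus. In neither gene did the sets overlap. Gfap did not overlap in the AA hippocampus, at 424.7 to 548.8 and 310.6 to 406.5 CPM, nor in the SS cortex, at 144.2 to 149.3 in 2 low-share and 46.3 to 115.8 in 6 high-share libraries. The number of all genes that lay apart in this way was not counted. Over all libraries Slc1a2 had lower medians with a low share, 2813.7 against 3013.3 CPM in the cortex. Its hippocampus medians were 2665.5 and 2811.6. The other genes had higher medians with a low share in both tissues. The microglial sum moved with the share too, with medians over all cortex libraries of 242.1 CPM in low-share and 189.2 in high-share ones, and 264.6 and 206.6 in the hippocampus. The share entered the group comparisons as a term and by subsets, but its own part in the levels of the 10 genes was not tested.

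The genes whose levels were most like those of Gfap, Aqp4 and Serpina3n were sought among all genes that are not of the 10, by Pearson's r of log2 CPM after subtraction of group means, over 66 cortex or 64 hippocampus libraries. In the cortex Gfap was followed by Cnn3 (0.801), Rlbp1 (0.783) and Igfbp2 (0.769), Aqp4 by Bmpr1b (0.901), Ednrb (0.884) and Elovl2 (0.859), and Serpina3n by Kcng2 (0.78), Cotl1 (0.729) and Ehd1 (0.727). In the hippocampus Gfap was followed by Klk8 (0.87), Ostf1 (0.853) and Ntf3 (0.842), Aqp4 by P2ry12 (0.793), Rnf141 (0.783) and Ednrb (0.768), and Serpina3n by Klk8 (0.927), Hpca (0.924) and Cnih2 (0.878). Among the 10 genes themselves, Gfap was closest to S100b in the cortex (0.622) and to Serpina3n (0.837) and Vim (0.82) in the hippocampus, and Aqp4 was closest to Gja1 (0.727 and 0.684). Aqp4 and Aldh1l1 had a negative r in both tissues (−0.47 and −0.324). The libraries share depth, share of reads outside genes and the part of tissue sampled, so these values are descriptions.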

How the data were processed

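RNA of cortex and hippocampus was sequenced from single-end, directional polyA libraries. The authors aligned reads to GRCm39 with STAR and deposited raw read counts per gene (GENCODE annotation) in 1 table per tissue. The STAR version, GENCODE release and strand column are not given in the sources used here. The 4 summary lines of each table were kept out of library sizes and tests, 3 columns that matched no sample were not used, and 1 library whose labels disagreed on its tissue was left unassigned.

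Groups came from the labels of 134 libraries. Depth per library is given with the libraries above. Counts were tested with edgeR 4.0.16 (quasi-likelihood test, TMM, filterByExpr with a minimum count of 10 and total of 15; R 4.3.3, limma 3.58.1), with Benjamini-Hochberg adjustment over all genes tested and calls at an adjusted p under 0.05. Genotypes were compared in 1 model of all groups of a tissue, groups of a genotype in 1 model of that genotype, and tissues in 1 model of both, giving 9 comparisons per tissue and 2 between tissues. Log2 CPM for likeness used a prior count of 2. Libraries of separate mice were the replicates. Python 3.11.15, pandas 2.3.3 and numpy 2.4.6 were used for tables, and the test was checked on simulated data.

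Within AA mice the 2 tissues of a mouse deviated together (r of 0.588 to 0.804 over 11 mice), and within SS mice too (0.232 to 0.894 over 7). The cortex of a mouse was most like its own hippocampus in 9 of the 11 AA mice and in 4 of the 7 SS mice. The fit with the mouse as a block takes this pairing into account. The groups within a tissue share no mouse.

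The 10 genes are printed with CPM in every group, with log2 fold changes where called and, for Gfap, Aqp4 and Serpina3n, also where not called. Of each further list, counts, the median and up to 3 called genes of largest change are printed. Some called genes of these lists are not reported here. The genes and lists were chosen with earlier results of these data known. Alternatives were DESeq2 1.42.0, RLE scaling, no filter, an unadjusted threshold and models of only the groups compared. Terms for mouse series, share of reads outside genes and dissection (the log2 difference of regional markers) were further ones. Each library of AA + RSD, SS + RSD and SS + minocycline mice was also left out in turn. So were those of AA mice 5844 and 9631, AA + RSD + minocycline mouse 5853 and SS + RSD + minocycline mouse 7078. Libraries of the other mice were not left out singly. Subsets by share and by regional markers were chosen after seeing the data.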

Additional observations from a re-analysis of the deposited data

Results flagged for a closer look

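Of 60 sets of 4 to 10 libraries checked for a lone extreme value, 5 had one, and chance gives about 1 in 20. In the SS + RSD cortex, Serpina3n of mouse 5391 was 23.18 CPM against 12.8 to 16.3 in the other 5. There too mouse 9621 had Slc1a3 at 969.28 CPM against 626.5 to 663.9 and Aqp4 at 156.44 CPM against 62.05 to 81.1. This mouse also had the highest Cd44 of the SS + RSD hippocampus libraries, at 8.5897 CPM against 1.12 to 3.59. Its cortex library held 974.7 CPM summed over striatum markers and its hippocampus library 109.4 CPM summed over meningeal fibroblast markers. In the SS + minocycline cortex, Slc1a3 of mouse 9888 was 647.31 CPM against 499.1 to 519.3 in the other 3.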

How the results depend on the processing

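Of 1120 alternative values of 75 log2 fold changes, 982 kept direction and side of the threshold, 56 lost the call, 15 gained it and 67 changed sign. In 66 of the 67 the value was called neither as reported nor under the alternative, and the other was Aldh1l1 in the hippocampus for minocycline in SS + RSD mice. The cause was not tested. Of 337 alternative counts of the 10 genes called, 269 stayed within 1.5 times, and of 1902 counts for the further lists 1616 did.

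The log2 values that changed sign are given here. With the dissection term the values were, for genotype after RSD (cortex) Gfap at 0.12 and Aqp4 at 0.15, for the interaction (cortex) Gfap at 0.54 and Serpina3n at 0.029, for minocycline alone in SS mice (cortex) Aqp4 at −0.14, for genotype after RSD (hippocampus) Gfap at −0.44, Serpina3n at −0.046 and Aqp4 at −0.24, for the interaction (hippocampus) Gfap at −0.20 and Aqp4 at −0.077, for RSD in AA mice (hippocampus) Gfap at 0.25, and for minocycline in AA + RSD mice (hippocampus) Gfap at −0.20. With no filter the values were, for minocycline alone in SS mice (hippocampus) Aqp4 at −0.014. With mouse series as a term the values were, for minocycline in SS + RSD mice (cortex) Gfap at 0.63, Serpina3n at 0.21 and Aqp4 at 0.13, for RSD in SS mice (hippocampus) Gfap at −0.13 and Serpina3n at −0.019, for minocycline in SS + RSD mice (hippocampus) Gfap at 0.36, Serpina3n at 0.30 and Aldh1l1 at 0.013, for RSD in AA mice (hippocampus) Aqp4 at −0.10, and for minocycline in AA + RSD mice (hippocampus) Aqp4 at 0.13. With high-share libraries alone the values were, for SS against AA (hippocampus) Aqp4 at 0.081, and for minocycline alone in SS mice (hippocampus) Gfap at −0.061, Serpina3n at −0.11 and Aqp4 at −0.17. With low-share libraries alone the values were, for RSD in SS mice (cortex) Serpina3n at −0.012, for RSD in SS mice (hippocampus) Gfap at −0.10, for minocycline in SS + RSD mice (hippocampus) Gfap at 0.12, Serpina3n at 0.067 and Aqp4 at 0.089, for RSD in AA mice (hippocampus) Aqp4 at −0.19, and for minocycline in AA + RSD mice (hippocampus) Aqp4 at 0.21. With series A alone the values were, for RSD in SS mice (cortex) Serpina3n at −0.0046, for RSD in SS mice (hippocampus) Gfap at −0.10, and for RSD in AA mice (hippocampus) Aqp4 at −0.085. With the share as a term the values were, for minocycline in SS + RSD mice (hippocampus) Gfap at 0.040, for minocycline alone in SS mice (hippocampus) Serpina3n at −0.030 and Aqp4 at −0.036, for RSD in AA mice (hippocampus) Aqp4 at −0.15, and for minocycline in AA + RSD mice (hippocampus) Aqp4 at 0.18. With the libraries of deviating regional markers left out the values were, for genotype after RSD (cortex) Gfap at 0.15 and Serpina3n at 0.013, for the interaction (cortex) Gfap at 0.62 and Serpina3n at 0.34, for genotype after RSD (hippocampus) Gfap at −0.12 and Aqp4 at −0.13, for RSD in AA mice (hippocampus) Gfap at 0.15, and for minocycline in AA + RSD mice (hippocampus) Gfap at −0.093. Ranges with 1 library left out at a time, among those named with the alternatives above, were as follows. For genotype after RSD (cortex) Gfap lay between −1.001 and 0.12 (turning without mouse 9674). For the interaction (cortex) Gfap lay between −0.54 and 0.63 (turning without mouse 9674), Serpina3n lay between −1.19 and 0.28 (turning without mouse 9674) and Aqp4 lay between −0.12 and 0.28 (turning without mouse 9621). For minocycline alone in SS mice (cortex) Serpina3n lay between −0.052 and 0.45 (turning without mouse 9889) and Aqp4 lay between −0.10 and 0.19 (turning without mouse 7121 or 9888). For minocycline in AA + RSD mice (cortex) Gfap lay between −1.11 and 0.028 (turning without mouse 9674). For genotype after RSD (hippocampus) Gfap lay between −0.12 and 0.51 (turning without mouse 9674) and Aqp4 lay between −0.13 and 0.25 (turning without mouse 9674). For minocycline alone in SS mice (hippocampus) Serpina3n lay between −0.046 and 0.27 (turning without mouse 9888) and Aqp4 lay between −0.063 and 0.13 (turning without mouse 9888 or 9889). For RSD in AA mice (hippocampus) Gfap lay between −0.48 and 0.15 (turning without mouse 9674) and Aqp4 lay between −0.16 and 0.23 (turning without mouse 9643). For minocycline in AA + RSD mice (hippocampus) Gfap lay between −0.093 and 0.53 (turning without mouse 9674) and Aqp4 lay between −0.26 and 0.12 (turning without mouse 9643).

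The counts that moved were as follows, with numbers over all genes in brackets for the unadjusted threshold only. For the other settings the share of all genes called is not given with the count. A count that moved under those settings can thus not be read as particular to the genes described. At an unadjusted p the cortex counts were 2 for SS against AA (1501 of 22926), 2 after RSD (1111), 2 with RSD and minocycline (1893) and 1 for the interaction (676). They were 6 for RSD in SS mice (5508 of 19906), 3 for RSD in AA mice (3164 of 21927) and 4 for minocycline in AA + RSD mice (5325). In the hippocampus they were 1, 2, 2 and 2 (862, 2089, 1935 and 1545 of 23215). Then came 4 for RSD and 4 for minocycline with RSD in SS mice (4050 and 5539 of 20701), and 2 and 3 in AA mice (3153 and 4178 of 21563). For genotype after RSD in the cortex the series term gave 1, and for genotype with RSD and minocycline the share term gave 1 in the cortex and high-share libraries 1 in the hippocampus. RSD in SS cortex gave 2 with DESeq2 and 5 with only the groups compared, in place of 0, and minocycline alone in SS cortex gave 4 within series B. Minocycline in SS + RSD mice gave 2 in each tissue. In the cortex no filter gave 1, and the series term, the share term and low-share libraries gave 0. In the hippocampus RLE scaling, no filter and only the groups compared gave 1 each, and the series, share and dissection terms and low-share libraries gave 0. RSD in AA hippocampus gave 0 in place of 1 with only the groups compared, each of the 3 terms, series A alone, low-share libraries and without libraries of deviating regional markers. Minocycline in AA + RSD mice gave 0 in place of 1 with the dissection term and without those libraries in both tissues, and in the cortex also with the series and share terms and low-share libraries. Low-share libraries gave 4 between the tissues of SS mice, in place of 8, from 2 libraries a tissue.

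Leaving out the same libraries 1 at a time gave 0 to 1 called in the cortex for genotype after RSD (1 without AA + RSD mouse 9643 or 9646 or SS + RSD mouse 5391) and 0 to 1 for RSD in SS mice (1 without SS + RSD mouse 5400). RSD in AA mice gave 0 to 2 in the cortex (1 without 9643, 2 without 9646) and 0 to 1 in the hippocampus (0 without 9674). Minocycline in AA + RSD mice gave 0 to 2 in both tissues (0 without 9674, 2 without 9646). Minocycline in SS + RSD mice gave 1 to 2 in the cortex and 0 to 2 in the hippocampus. The share of all genes called in these fits is not reported here. Their counts can thus not be read as particular to the genes described.

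With the mouse as a replicate block, 8 of the 10 genes were called between tissues in AA mice, with Gfap at 1.65 ± 0.08, and 8 in SS mice. Groups within a tissue share no mouse number. Depth limited Cd44 most, at 16 reads in its shallowest library. The AA + RSD group held 3 mice and the AA + minocycline group 1, which entered no comparison.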
